A study of Homo sapiens with 15 samples.

Results

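Among the 28395 genes counted in these libraries, 6 short noncoding RNA genes stood at the top: RN7SL1, RN7SL2, RN7SK, RPPH1, RMRP and SNORD3A. They were chosen by symbol because of their abundance, so their levels and shares of the counts are given here as a description, with no test. BEAS-2B is an immortalised human line derived from bronchial epithelium. Its cells were exposed to nanoplastics made from polyethylene terephthalate (PET-NPLs) at 50 µg/mL or left unexposed. There were 2 controls and 2 exposed samples for the 24 h exposure, 2 of each for 15 weeks, and 3 controls with 4 exposed samples for 30 weeks, each control matched to the exposed cells by time in culture. All 15 samples come from the same cell line, and nothing states whether samples of a group were separate cultures, so the p-values below measure only the spread between these samples, which may be technical. The 30-week samples were labelled batch 2 and all others batch 1. Exposed and control cells of one time point therefore share a batch, whereas for 30 against 15 weeks time and batch cannot be told apart.

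The 6 RNAs are the working cores of ribonucleoprotein machines. RN7SL1 and RN7SL2 encode 7SL RNA, the scaffold of the signal recognition particle (SRP), which brings ribosomes that make secreted and membrane proteins to the endoplasmic reticulum. RN7SK encodes 7SK RNA, which together with HEXIM proteins holds the elongation kinase P-TEFb (CDK9 with a cyclin T) inactive. RPPH1 is the catalytic RNA of RNase P, which trims the 5′ leader of precursor tRNAs, and RMRP is the related RNA of RNase MRP, which cuts precursor rRNA. SNORD3A encodes U3, a box C/D small nucleolar RNA (snoRNA) that pairs with precursor rRNA in the small-subunit processome, where 18S rRNA is released. RNA polymerase III makes the first 5 of these, whereas U3 is made by RNA polymerase II.

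All members are placed as RefSeq has them on GRCh38. The sequences below are mature RNAs, written as DNA and printed for the members whose letters are described below. RN7SL1 lies on chromosome 14, plus strand, 299 nt, inside the span of RPS29 on the opposite strand without touching an exon. RN7SL2, also 299 nt, lies on the minus strand of that chromosome and overlaps an exon of a long noncoding RNA (lncRNA) on that strand. RN7SK (332 nt, its first 300 shown) lies at chr6:52995620-52995951 on the plus strand, and its capitals mark the letters GATC. RPPH1 (341 nt, the first 300 shown) lies at chr14:20343071-20343411 on the minus strand and overlaps a lncRNA exon of the same strand. RMRP (270 nt) lies at chr9:35657750-35658019 on the minus strand, and capitals in RPPH1 and RMRP mark the longest run that they share. SNORD3A (217 nt) lies at chr17:19188016-19188232 on the plus strand, with the letters TGATGA of a C box and the last CTGA, as in a D box, in capitals.
RN7SK: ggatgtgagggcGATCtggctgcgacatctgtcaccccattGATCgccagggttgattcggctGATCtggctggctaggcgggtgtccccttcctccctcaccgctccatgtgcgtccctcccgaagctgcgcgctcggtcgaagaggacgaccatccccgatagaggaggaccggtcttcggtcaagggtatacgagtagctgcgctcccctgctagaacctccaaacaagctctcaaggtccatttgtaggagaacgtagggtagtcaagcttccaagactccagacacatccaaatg
RPPH1: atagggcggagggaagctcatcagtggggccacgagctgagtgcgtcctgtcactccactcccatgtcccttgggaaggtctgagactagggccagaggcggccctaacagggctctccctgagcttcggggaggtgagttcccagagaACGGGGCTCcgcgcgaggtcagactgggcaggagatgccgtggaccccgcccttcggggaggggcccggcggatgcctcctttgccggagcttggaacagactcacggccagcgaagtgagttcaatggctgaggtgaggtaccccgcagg
RMRP: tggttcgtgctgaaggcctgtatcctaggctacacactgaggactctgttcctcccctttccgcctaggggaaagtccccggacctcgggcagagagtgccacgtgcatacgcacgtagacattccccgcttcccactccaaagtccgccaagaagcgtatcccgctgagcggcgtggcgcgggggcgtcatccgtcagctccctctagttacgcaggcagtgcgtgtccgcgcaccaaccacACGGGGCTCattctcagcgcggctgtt
SNORD3A: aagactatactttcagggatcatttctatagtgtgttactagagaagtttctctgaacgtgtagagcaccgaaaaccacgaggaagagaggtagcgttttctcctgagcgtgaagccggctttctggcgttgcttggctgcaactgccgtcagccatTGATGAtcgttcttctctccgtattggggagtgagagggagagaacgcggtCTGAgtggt

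The RN7SL1 and RN7SL2 sequences were identical at 295 of 299 positions (98.66%), with an unbroken identical run of 205 nt. A short read from that run cannot be assigned to 1 of the pair by its sequence, so the split of counts between RN7SL1 and RN7SL2 is uncertain, more so than their sum. SNORD3A differed from SNORD3B-1, SNORD3B-2 and SNORD3C at 1 position each and from SNORD3D at 3 positions of 217, so its split from these U3 genes is uncertain too. RPPH1 and RMRP shared a longest run of 9 nt, ACGGGGCTC. Read on the RNA strand, RN7SK held GATC at 3 places (from positions 13, 42 and 64), a number reached by 2.25% of 35116 RefSeq promoter windows of 300 bases. These letters were not particular to RN7SK: RN7SL1 and RN7SL2 held them at 4 places each, SNORD3A at 2, and RPPH1 and RMRP at 0. SNORD3A held TGATGA once, from position 158 (in 4.36% of windows of 217 bases), and its last CTGA began at position 209 (letters found in 60.9% of such windows). GC content ran from 49.77% in SNORD3A to 63.64% in RPPH1.

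These 6 genes took ranks 1 to 6 by counts in every one of the 15 libraries. Summed over the libraries, RN7SL1 held 20386257 counts, RN7SK 16382036, RN7SL2 10518775, SNORD3A 9081984, RPPH1 8442539 and RMRP 7075692. The next gene, ENO1, which encodes a glycolytic enzyme, held 2138048 counts, 3.31-fold fewer than RMRP, the least abundant member, and GAPDH (1752134) and ACTG1 (1442638) followed. The only other noncoding gene among the top 20 was MALAT1, a nuclear lncRNA, at rank 15. Libraries held 23143202 to 31459990 counts on genes, and the 6 RNAs took 16.8% of all counts. The 95% Wilson interval of the share in a library spanned at most 0.0162 percentage points to either side; such intervals cover counting error only.

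At 24 h the 6 RNAs together took 12.1% and 12.2% of counts in the 2 control libraries and 12.9% in both exposed libraries. The means were 12.2% ± 0.0883 (SD, n = 2) and 12.9% ± 0.00591 (SD, n = 2), a difference of 0.750 percentage points. At 15 weeks the shares were 11.4% and 11.3% in control cells and 10.2% and 9.75% in exposed cells, a difference of -1.39 points. Thus exposed libraries lay above controls at 24 h and below them at 15 weeks, by little in either case.

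At 30 weeks all libraries held more of these RNAs. Control cells had shares of 31.0%, 22.3% and 26.8% (mean 26.7% ± 4.36, SD, n = 3), and exposed cells had 17.0%, 18.0%, 21.5% and 19.0% (mean 18.9% ± 1.89, SD, n = 4). The 2 groups did not overlap, and the difference was -7.81 points. It was -5.64 points without control replicate 1, the library with the largest share, and -10.0 points without control replicate 2. Across batches, the 8 libraries of batch 1 ran from 9.75% to 12.9% and the 7 of batch 2 from 17.0% to 31.0%.

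**Figure D1:**
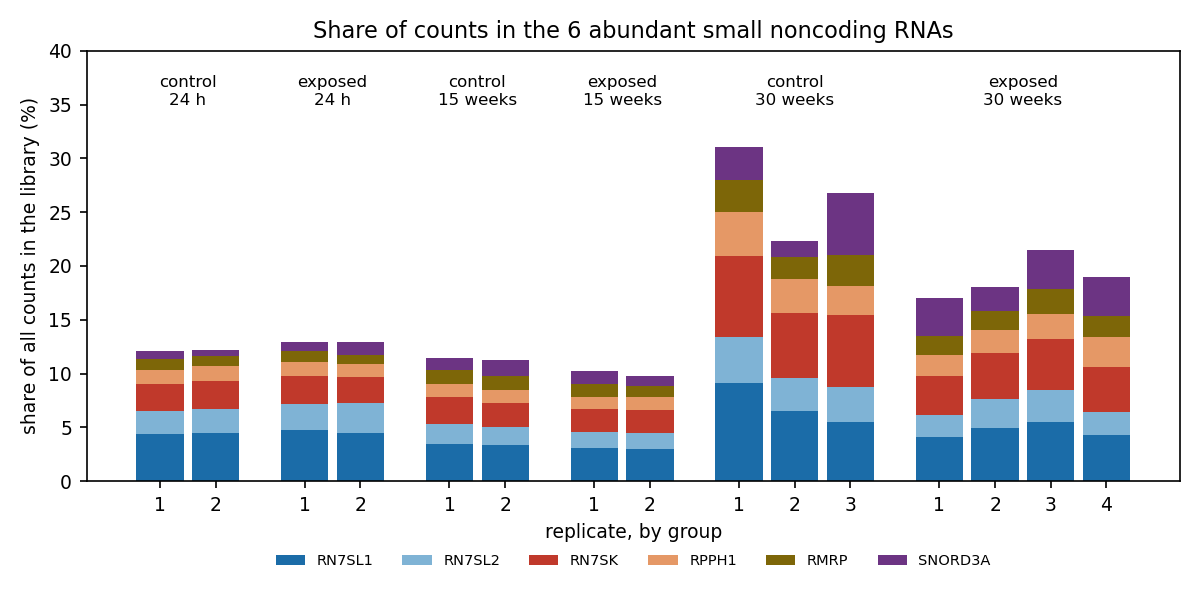
Share of each library's counts (percent, linear axis) taken by the 6 RNAs, stacked by gene, in all 15 libraries grouped by time and exposure. The 3 control libraries at 30 weeks reach 22.3% to 31.0%, the 4 exposed libraries 17.0% to 21.5%, and all earlier libraries 12.9% at most.

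Values from here on are CPM, read counts relative to library size after scaling by the trimmed mean of M-values (TMM), which can be compared between libraries for one gene. RN7SL1 stood at 41035 and 44558 CPM in control cells at 24 h, 46455 and 44015 in exposed cells at 24 h, 31409 and 29934 in controls at 15 weeks and 27885 and 26524 in exposed cells at 15 weeks. In the 30-week libraries it reached 123457, 71187 and 60937 CPM in controls against 39111, 52890, 56573 and 42027 in exposed cells. Control replicate 1 was the highest of all libraries, and every control at 30 weeks lay above every exposed library. The same held for 13% of the 16740 genes that passed a filter on low counts.

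RN7SL2, the second 7SL gene, had 20614 and 22559 CPM in controls and 23992 and 27851 in exposed cells at 24 h, then 16635 and 14751 against 13483 and 12631 at 15 weeks. Its 30-week values were 58362, 33154 and 35871 CPM in controls and 20297, 28736, 30989 and 20555 in exposed cells. Exposed cells were thus above controls at 24 h and below them at both later times, with no overlap at any of the 3. Of all genes tested, 12.9% lay above controls without overlap at 24 h, 22% below at 15 weeks and 13% below at 30 weeks. The counts of RN7SL1 divided by those of RN7SL2 stayed between 1.58 and 2.15 in all 15 libraries, and averaged 1.99 ± 0.250 (SD, n = 3) in controls and 1.91 ± 0.101 (SD, n = 4) in exposed cells at 30 weeks. The sum of both genes had a log2 fold change of -0.81 (standard error, SE, 0.220) between exposed and control cells at 30 weeks, a setting added after seeing the data.

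For RN7SK, whose RNA restrains P-TEFb, the levels at 24 h were 23508 and 26307 CPM in controls and 25586 and 24011 in exposed cells, and at 15 weeks 22730 and 19836 against 19451 and 19634. At 30 weeks controls had 101050, 65502 and 73831 CPM and exposed cells 34385, 46637, 49568 and 40929. The groups overlapped at 24 h, lay close together, without overlap, at 15 weeks and were widely apart at 30 weeks. Exposed libraries lay below controls without overlap for 22% of all genes tested at 15 weeks and 13% at 30 weeks. In controls of batch 1, the count ratio of RN7SL1 to RN7SK was 1.72 ± 0.0366 (SD, n = 2) at 24 h and 1.45 ± 0.0899 (n = 2) at 15 weeks. It was 1.04 ± 0.202 (n = 3) in the 30-week controls of batch 2, where time and batch cannot be told apart.

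RPPH1, the RNase P RNA, stood at 12600 and 13715 CPM in 24 h controls, 13305 and 11806 in exposed cells, 10691 and 11271 in controls at 15 weeks and 10082 and 9978 in exposed cells. Controls at 30 weeks had 56092, 34933 and 29235 CPM, and exposed cells 18868, 22812, 23747 and 27012. The gap between the lowest control and the highest exposed library at 30 weeks was narrower than the spread within either group. RMRP, the RNase MRP RNA, had 9094 and 9263 CPM in 24 h controls and 10051 and 7619 in exposed cells, and 11801 and 11607 against 11225 and 9726 at 15 weeks. Its 30-week levels were 40172, 22583 and 32135 CPM in controls and 16819, 18726, 24190 and 18706 in exposed cells, where control replicate 2 fell below exposed replicate 3. The 2 related ribozyme RNAs did not keep a fixed ratio within batch 1. Counts of RPPH1 per count of RMRP averaged 1.43 ± 0.0672 (SD, n = 2) in controls and 1.44 ± 0.160 (n = 2) in exposed cells at 24 h. They averaged 0.939 ± 0.0460 (n = 2) and 0.962 ± 0.0903 (n = 2) at 15 weeks. In batch 2, at 30 weeks, the ratio was 1.28 ± 0.333 (n = 3) in controls and 1.19 ± 0.194 (n = 4) in exposed cells. There it spread widely, from 0.910 to 1.55 in controls and from 0.982 to 1.44 in exposed cells.

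SNORD3A, the U3 RNA, had 7370 and 5942 CPM in 24 h controls and 7666 and 12118 in exposed cells, then 10122 and 13270 against 10325 and 7740 at 15 weeks. At 30 weeks controls held 40647, 15680 and 63160 CPM and exposed cells 34282, 23655, 37634 and 35600, so that the exposed libraries lay inside the range of the controls. Its ratio to RN7SK ran from 0.239 to 0.855 among the 3 controls at 30 weeks and from 0.507 to 0.997 among the 4 exposed libraries. SNORD3A held 6.61 to 19.7 counts for each count on the 4 other U3 genes together. These near-identical copies had log2 fold changes at 30 weeks of -0.10 (SNORD3D) to 0.37 (SNORD3C), none of which passed the test (adjusted p = 0.487 for SNORD3C, edgeR).

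**Figure D2:**
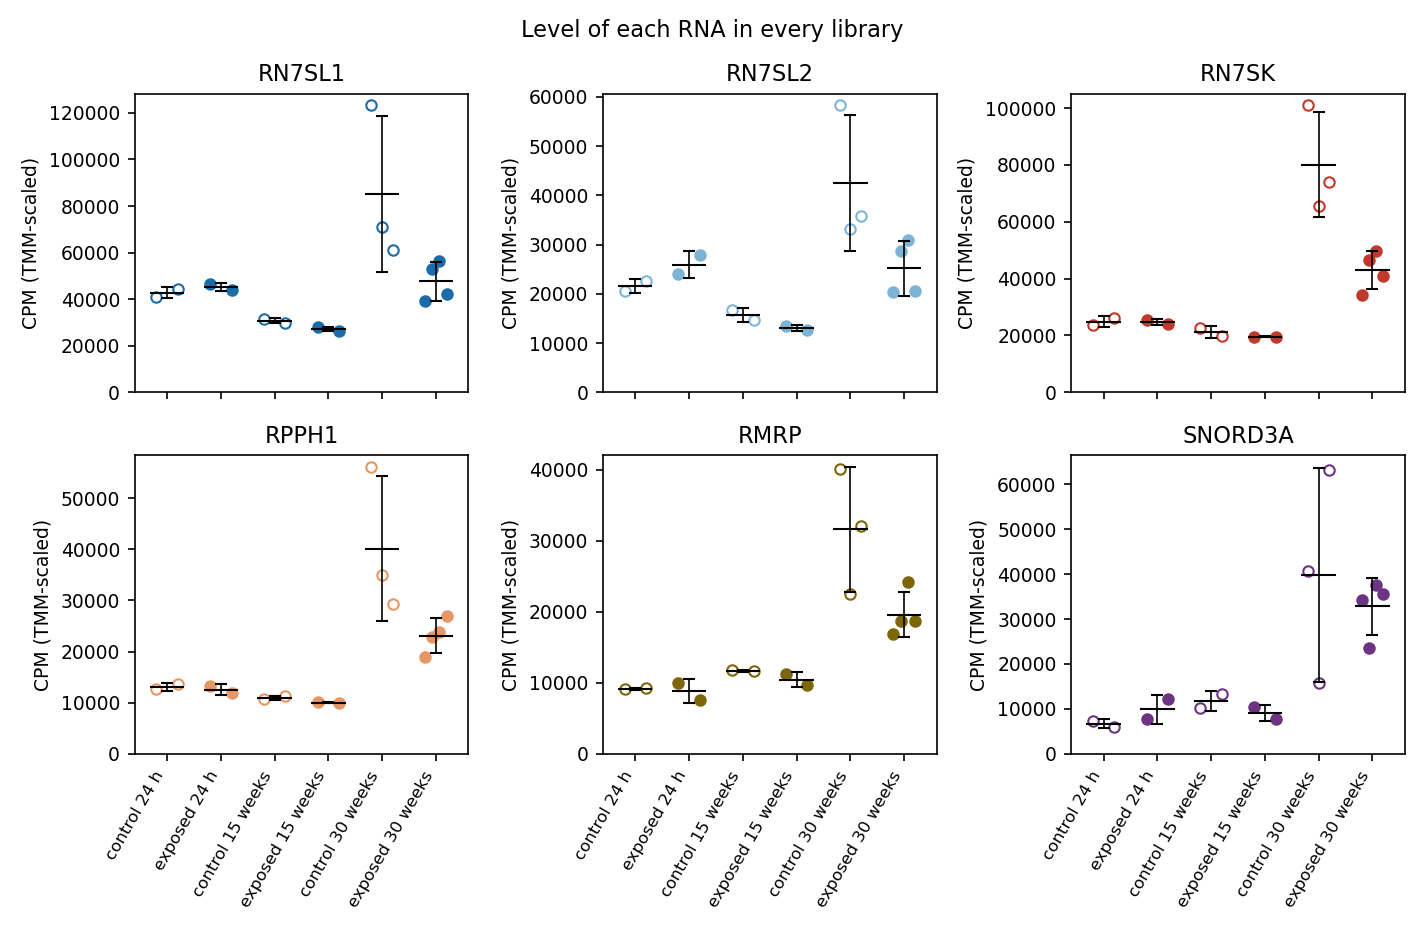
CPM (linear axis from 0) of each RNA in every library, with open circles for control and filled circles for exposed cells, and the mean ± SD of each group in black. The 4 exposed libraries lie below all 3 controls at 30 weeks for RN7SL1, RN7SL2, RN7SK and RPPH1, and overlap them for RMRP and SNORD3A. They lie below all 3 controls for 13% of all genes tested.

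Per length, the order of the members was the same at the top in most libraries. On CPM per kilobase, with no TMM scaling, RN7SL1 came first in 12 of 15 libraries and SNORD3A in the other 3, all at 30 weeks. RPPH1 was last in 8 libraries, RMRP and SNORD3A in 3 each and RN7SL2 in 1. In controls at 30 weeks the level per kilobase was 236133 ± 62145 (SD, n = 3) for RN7SL1, 202532 ± 21984 for RN7SK, 156195 ± 99949 for SNORD3A, 118257 ± 22805 for RN7SL2, 98203 ± 18608 for RMRP and 97767 ± 22178 for RPPH1. The ranges of RN7SL1 and RN7SK overlapped, those of RMRP and RPPH1 did as well, and SNORD3A overlapped every other member. In exposed cells at 30 weeks, RN7SL1 (156953 ± 20753, n = 4), SNORD3A (150451 ± 32630) and RN7SK (127330 ± 14926) led, with RN7SL2 (82690 ± 14500), RMRP (71757 ± 10186) and RPPH1 (67121 ± 10327) below them.

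Exposed cells were then compared with control cells at each time with edgeR, on 16740 genes that passed a filter on low counts, the 6 members included. At 24 h the fitted log2 fold changes, exposed over control, were 0.08 (SE 0.290) for RN7SL1, 0.26 (0.278) for RN7SL2, -0.07 (0.263) for RPPH1, -0.06 (0.255) for RMRP and 0.57 (0.437) for SNORD3A, and RN7SK was within 0.01 of 0 (SE 0.240). RN7SL2 and SNORD3A lay above controls without overlap, as did 12.9% of all genes tested. At 15 weeks the values were -0.17 (SE 0.290) for RN7SL1, -0.27 (0.278) for RN7SL2, -0.12 (0.240) for RN7SK, -0.13 (0.263) for RPPH1, -0.16 (0.255) for RMRP and -0.37 (0.437) for SNORD3A. There, 5 members lay below controls without overlap and SNORD3A overlapped, while 22% of all genes lay below. Apart from SNORD3A at 24 h, all of these changes were smaller than their SE.

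At 30 weeks the members were lower in exposed cells, with log2 fold changes of -0.84 (SE 0.220) for RN7SL1, -0.76 (0.211) for RN7SL2, -0.90 (0.182) for RN7SK, -0.79 (0.199) for RPPH1, -0.69 (0.193) for RMRP and -0.28 (0.332) for SNORD3A. Their median was -0.78, against 0.01 over all genes. RN7SL1, RN7SL2, RN7SK and RPPH1 lay below controls without overlap, as did 13% of all genes. Of all genes, 23.7% were called changed at an adjusted p under 0.05. Control replicate 1 carried part of the difference: without it the values were -0.46 for RN7SL1, -0.45 for RN7SL2, -0.69 for RN7SK, -0.47 for RPPH1 and -0.47 for RMRP. SNORD3A changed sign without control replicate 3 (0.22) and with surrogate variables in limma-voom (0.31) or edgeR (0.050). When libraries were scaled by their totals alone, the median of all genes moved to 0.22 and that of the members to -0.53, so that relative to the median of all genes the members were about as low.

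**Figure D3:**
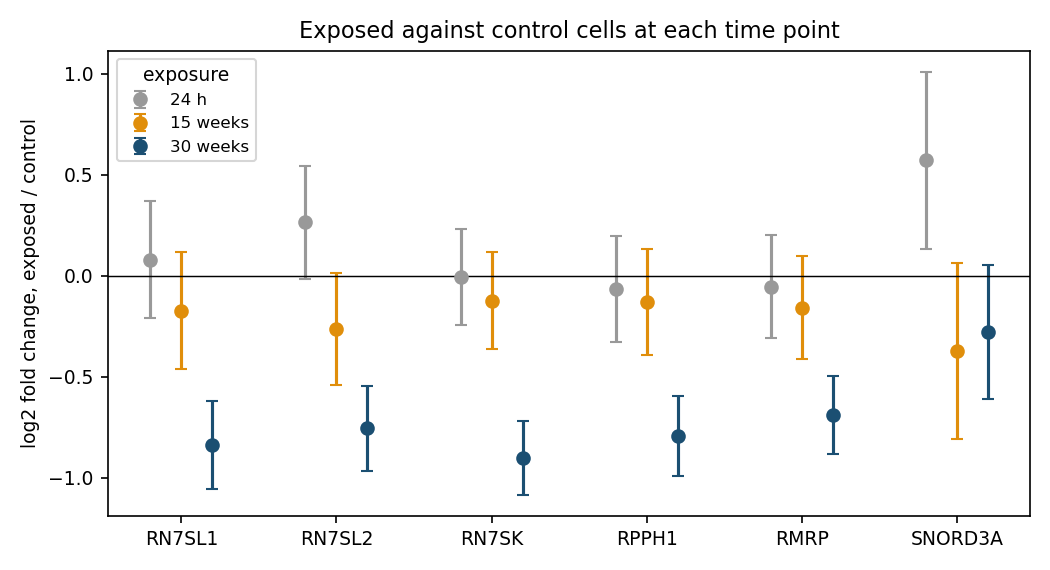
Fitted log2 fold change of each RNA with its standard error (bars), for exposed against control cells at each time. At 30 weeks 5 of the RNAs lie between -0.90 and -0.69 and SNORD3A lies at -0.28, while at 24 h and 15 weeks the values run from -0.37 to 0.57.

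The exposure changes at 30 weeks minus those at 15 weeks were -0.67 (SE 0.364) for RN7SL1, -0.49 (0.350) for RN7SL2, -0.78 (0.302) for RN7SK, -0.66 (0.331) for RPPH1, -0.53 (0.320) for RMRP and 0.09 (0.549) for SNORD3A, where 4.74% of all genes were called by edgeR. Between 24 h and 15 weeks, within batch 1, the controls moved apart by member: RN7SL1 changed by -0.48 (SE 0.290), RN7SL2 by -0.46 (0.279), RN7SK by -0.23 (0.240) and RPPH1 by -0.26 (0.263), while RMRP changed by 0.35 (0.255) and SNORD3A by 0.81 (0.439). All 6 lay apart without overlap, 2 higher and 4 lower, as did 33.6% and 35.3% of all genes. In exposed cells the same 4 RNAs lay lower at 15 weeks than at 24 h (background 35.1%), with log2 changes of -0.73, -0.99, -0.34 and -0.32, and RMRP (0.25) and SNORD3A (-0.13) overlapped.

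From 15 to 30 weeks all 6 RNAs stood higher in both arms. Controls changed by log2 values of 1.47 (RN7SL1), 1.44 (RN7SL2), 1.91 (RN7SK), 1.87 (RPPH1), 1.43 (RMRP) and 1.77 (SNORD3A), and exposed cells by 0.81, 0.95, 1.13, 1.20, 0.90 and 1.86 in that order. Neither arm overlapped between the times for any member, against 34% of genes higher in controls and 28.1% in exposed cells. The shares of other classes of RNA differed between the batches in both directions. They are parts of a total that includes the 6 RNAs, which took 9.75% to 12.9% in batch 1 and 17.0% to 31.0% in batch 2. A larger share for the 6 RNAs leaves less for the rest, so lower shares of other classes are not independent of it. Protein-coding genes took 85.2% to 88.2% of counts in batch 1 and 66.7% to 80.8% in batch 2, and lncRNA genes 0.767% to 0.960% and 0.571% to 0.698%. Replication-dependent histone genes took 1.57% to 1.96% of counts in batch 1 and 2.80% to 5.37% in batch 2, and at 30 weeks 4.52% ± 0.852 (SD, n = 3) in controls against 3.38% ± 0.390 (n = 4) in exposed cells. Small Cajal body RNAs (scaRNAs) with the telomerase RNA took 0.0699% to 0.111% in batch 1 and 0.297% ± 0.0630 (n = 3) in controls against 0.184% ± 0.0193 (n = 4) in exposed cells at 30 weeks. rRNA genes overlapped between batches, with up to 0.0317% in batch 1 and 0.00630% to 0.130% in batch 2. The part of the histone, scaRNA and rRNA levels in the result was not tested.

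Summed levels of cell type markers also differed between the arms at 30 weeks. Of 12 bronchial epithelial markers, TP63, NKX2-1 and GRHL2 had 3 counts or fewer in every library, and the summed level of the list, in CPM by library totals, was 286 to 303 CPM in controls at 30 weeks, 819 to 1058 in exposed cells at 30 weeks and 904 to 1166 in all earlier libraries. Of 8 skeletal muscle markers, 5 were detected and summed to 108 to 124 CPM in controls at 30 weeks against 0.469 to 1.11 in exposed cells, and to 0.155 to 6.98 in the earlier libraries; MYF5, CKM and TNNT3 had 3 counts or fewer everywhere. All 8 mesenchymal markers were detected and summed to 1640 to 1651 CPM in controls and 1895 to 2507 in exposed cells. The 6 ciliated or secretory markers (FOXJ1 and SCGB3A1 at 3 counts or fewer) summed to 313 to 326 CPM against 244 to 289. That list includes TUBA1A, a tubulin gene not limited to such cells, and how much of the sum it made up is not given here. The 5 blood markers (CD3E and HBB at 3 counts or fewer) summed to 21.5 to 27.7 CPM against 12.3 to 16.2. Each of these lists, the blood markers included, lay apart without overlap between the arms at 30 weeks, as did the share of the 6 RNAs. Among single genes, 13% of all genes tested lay below controls without overlap at 30 weeks. The share that lay above is not given here, and the lists are sums, so this is only a rough guide. The part of these lists in the result was not tested.

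The protein partners of the 6 RNAs were then examined in lists that the choice of the RNAs did not use. At 24 h and 15 weeks, 0 of 93 partner genes passed the test (edgeR, adjusted p under 0.05; 0% of all genes passed at either time), with 1 at an unadjusted p under 0.05 at each time, and DESeq2 and limma-voom also called 0. At 30 weeks 14 of 93 passed, 7 higher and 7 lower (15.1%, against 23.7% of all genes), with a median log2 fold change of 0.10 against 0.01. Scaled by library totals, 22 passed, all higher, and with surrogate variables 10 were higher and 17 lower in both limma-voom and edgeR, with medians of -0.026 in each. Without exposed replicate 2, 9 were higher and 20 lower, with a median of -0.027. The split moved under each of these settings, and the median changed sign under all but library totals. The count was 4 without control replicate 1, 7 without exposed replicate 1 and 29 without exposed replicate 2.

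For the SRP, 0 of 8 protein and receptor genes passed at 30 weeks, also 0 at an unadjusted p under 0.05 with edgeR, with log2 fold changes from -0.19 for SRP72 to 0.22 for SRP68. Of 7 genes of the 7SK particle and P-TEFb, HEXIM2 fell (-0.60, SE 0.143, adjusted p = 0.00600, edgeR), from 13.3 ± 1.24 CPM (SD, n = 3) to 8.75 ± 0.750 (SD, n = 4). HEXIM1, the other inhibitor of P-TEFb, had -0.31 (adjusted p = 0.140), CDK9, its kinase, 0.34 (0.147), and MEPCE, which caps 7SK, -0.22 (0.190). Among 11 RNase P and MRP proteins, POP7, a shared subunit, fell by 0.46 on the log2 scale (SE 0.155, adjusted p = 0.0398), and lost its call in 9 of 19 alternatives.

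Of 34 genes of the U3 particle and the small-subunit processome, 4 rose and 3 fell at 30 weeks. PWP2, a processome subunit, rose from 46.9 ± 5.71 CPM (SD, n = 3) to 73.8 ± 4.20 (n = 4), with a log2 fold change of 0.65 (SE 0.107, adjusted p = 3.14e-04, edgeR). HEATR1 (0.49), UTP4 (0.49) and the snoRNP core protein NOP56 (0.40) rose as well, and UTP3 (-0.51), IMP3 (-0.51) and the box C/D core protein SNU13 (-0.48) fell. IMP3 lost its call in 8 of 19 alternatives, HEATR1 and UTP4 in 4 each and UTP3 in 1, and all but UTP3 among them without control replicate 1. NOP56 and SNU13 were outside the rule for named genes and were chosen after their values were seen. FBL, the methyltransferase of box C/D particles, had -0.14 (adjusted p = 0.480).

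Of the RNA polymerase III subunits, POLR3G, one of 2 alternative forms of a subunit, stood at 6.32, 5.67 and 4.40 CPM in controls at 30 weeks and 11.4, 27.1, 12.8 and 9.15 in exposed cells, so every exposed library lay above every control. It rose by 1.47 on the log2 scale (SE 0.311, adjusted p = 0.00270, edgeR), and the alternative form POLR3GL had -0.07 (adjusted p = 0.832). Of 20 initiation factors, regulators and RNA end-binding proteins, GTF3C4 (0.58, adjusted p = 0.0113) and POU2F1 (0.40, 0.0423) rose and SNAPC1, a subunit of the complex that binds promoters of snRNA genes and RN7SK, fell (-0.61, 0.0463). MAF1, the repressor of RNA polymerase III, had -0.20 (adjusted p = 0.242), and SSB, which binds the 3′ end of new transcripts, 0.11 (0.734). POU2F1 and SNAPC1 lost their calls in 10 and 11 of 19 alternatives, and POLR3G in 0.

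Other small noncoding RNAs were counted at far lower levels, and 276 of the 473 such genes in the table passed the filter. At 24 h and 15 weeks 0 of the 276 passed the test (edgeR), 8 and 14 had an unadjusted p under 0.05, and DESeq2 called 0 at both times. At 30 weeks 68 fell and 2 rose (25.4% called, against 23.7% of all genes, of which 11.7% were lower and 12% higher), and the median log2 fold change was -0.47, or -0.27 without control replicate 1 and -0.25 with library totals only. With surrogate variables 63 fell and 19 rose in limma-voom, and 60 fell and 16 rose in edgeR. In all, 28 genes were called without control replicate 1 and 39 without exposed replicate 1. By class, 33 of 138 box C/D snoRNAs fell and 1 rose, 16 of 82 box H/ACA snoRNAs fell, 8 of 25 spliceosomal and histone-processing snRNAs fell, 7 of 19 scaRNAs and telomerase RNA fell, and 4 of 12 other RNA polymerase III RNAs fell and 1 rose. In bulk libraries, fewer cells making an RNA and less RNA per cell cannot be told apart, for these genes and for the 6 members alike.

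**Figure D4:**
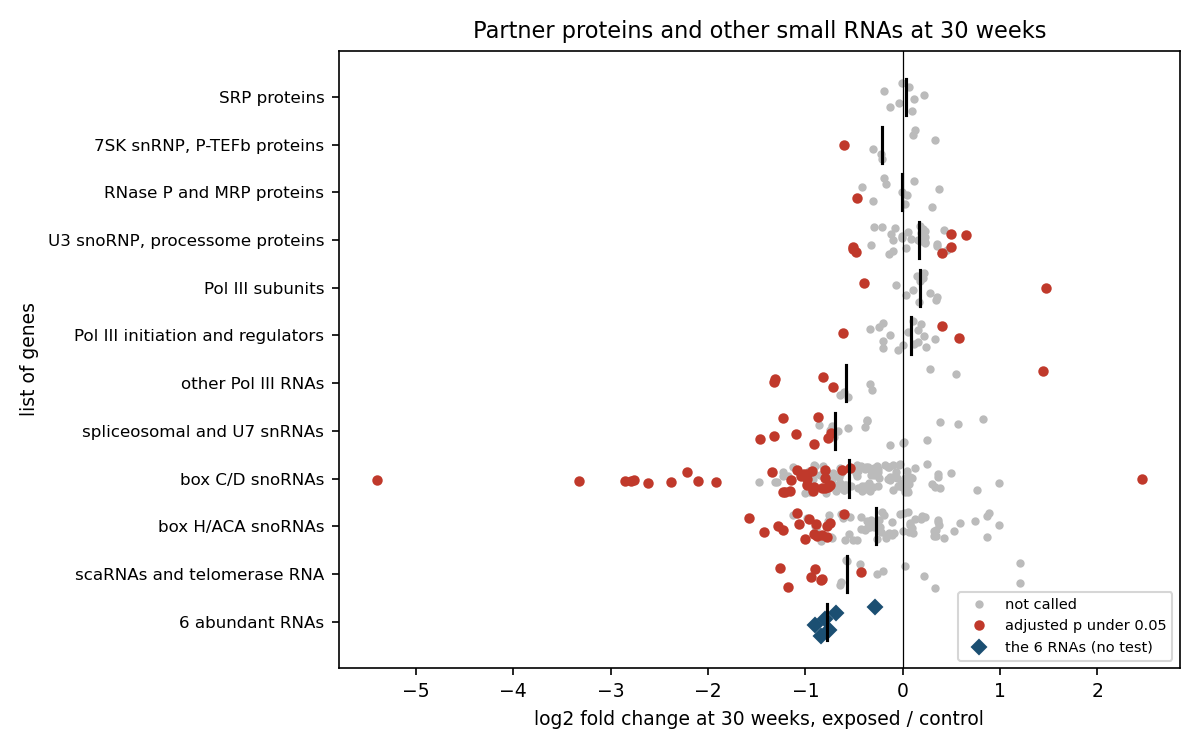
Log2 fold change at 30 weeks (exposed over control) of each gene tested in the lists of partner proteins and in the classes of other small noncoding RNAs, with called genes in red, others in grey, list medians as black bars and the 6 abundant RNAs as diamonds. The partner proteins lie on both sides of 0 (7 called higher, 7 lower), and the small RNAs lie mostly below it (2 called higher, 68 lower).

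Among the called small RNAs with at least 1 CPM on average, TERC, the template RNA of telomerase, had 397, 301 and 183 CPM in controls at 30 weeks and 117 to 129 in the exposed libraries, which gave -1.26 on the log2 scale (SE 0.181, adjusted p = 9.95e-05, edgeR). SCARNA2 fell from 1031 ± 403 CPM (SD, n = 3) to 454 ± 58.5 (SD, n = 4) and SCARNA10 from 1165 ± 290 to 653 ± 98.8; both are scaRNAs, which guide the modification of spliceosomal RNAs. Of the spliceosomal RNAs, RNU11 of the minor spliceosome fell by 1.47 on the log2 scale (adjusted p = 2.51e-04), RNU4ATAC by 1.23 (0.0159), RNVU1-19 by 1.32 (0.00270), RNVU1-4 by 1.10 (0.0232) and RNU1-1 by 0.91 (6.58e-04). The last 3 are U1 genes or variants with near-identical copies, so the split of their counts is uncertain. The vault RNAs VTRNA1-1 (-1.32) and VTRNA1-3 (-0.81) and the U6 gene RNU6-2 (-0.71) fell, whereas RNY1, a Y RNA bound by the Ro protein, rose from 2.12 ± 1.32 to 5.74 ± 2.39 CPM (1.44, adjusted p = 0.0220). RNU6-2 lost its call in 7 of 19 alternatives, with -0.44 without control replicate 1, and RNVU1-4 in 5 of 19. RNY1 lost its call in 6 of 18 alternatives, among them leaving out control replicate 1 or 2 or exposed replicate 1 or 3.

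The SNORD116 copies, an imprinted cluster of near-identical box C/D snoRNAs, made up part of the box C/D count, as 8 of the 12 tested fell. Among the called box C/D snoRNAs with at least 1 CPM on average, the largest changes were those of SNORD116-21 (-3.33, SE 0.442), SNORD116-19 (-2.79, 0.364) and SNORD116-18 (-2.11, 0.453), and the split of counts among such copies is uncertain. SNORD116-21 held 24 to 48 counts in controls at 30 weeks and 1 to 5 in exposed cells, 6 to 8 and 0 to 1 at 15 weeks, and 56 to 83 and 66 to 77 at 24 h. SNORD55 (-1.23) and SNORD46 (-1.21) followed, and SNORD18A, chosen after its values were seen, was the box C/D snoRNA that rose (2.45, SE 0.796). The H/ACA snoRNAs SNORA24 (-1.57), SNORA50C (-1.28), SNORA28 (-1.23), SNORA72 (-1.08) and SNORA41 (-1.07) fell. Most snoRNAs lie in introns of host genes, and whether intronic reads of the host were counted with them is not given in the sources used here.

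How long an RNA is went with how often it was counted, in CPM not divided by length. A longer RNA can give more fragments per molecule, and the part of this in the trend was not tested. Of the 473 other small RNA genes, 65 of 259 with 100 nt or less (25.1%) reached a mean of 1 CPM (by library totals) over the 15 libraries, as did 70 of 167 with 101 to 150 nt (41.9%), 18 of 26 with 151 to 200 nt (69.2%) and 19 of 21 above 200 nt (90.5%). The median level was 0.107 CPM in the shortest class and 86.0 CPM in the longest, where SNORD3B-2 led with 1389 CPM. Most copies of the SNORD113, SNORD114, SNORD115 and SNORD116 clusters fall in the shortest class. Of these copies, only SNORD116-19 (1.04 CPM) and SNORD116-21 (1.02 CPM) reached a mean of 1 CPM. The part of these clusters in the trend with length was not tested. All 6 members are longer than 200 nt. The libraries were made from total RNA after rRNA removal, and how well RNAs of each length were kept was not tested.

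Apart from the 6 members, 13443 genes with at least 1 CPM were compared by log2 CPM over the 15 libraries with the members' mean. The most similar were FKBP8 (Pearson r = 0.982), MCAT (0.979), RNF167 (0.979), SHARPIN (0.979) and SCARNA12 (0.979), the last also in the scaRNA list above. Within the 8 libraries of 24 h and 15 weeks r was 0.467, 0.666, 0.503, 0.943 and 0.940, and within the 7 libraries of 30 weeks 0.992, 0.951, 0.956, 0.939 and 0.910. They are descriptions over libraries that share a batch and a scaling. FKBP8 had 99.6 and 101 CPM on average in control and exposed cells at 24 h, 106 and 91.3 at 15 weeks, and 188 and 145 at 30 weeks. SCARNA12, the scaRNA among them, had 178 CPM in controls at 30 weeks.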

How the data were processed

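Total RNA of BEAS-2B cells was depleted of rRNA and made into stranded libraries. The authors trimmed the reads with Rfastp and counted them per gene with Rsubread on hg38 (the submitters' processing notes name featureCounts), and the count values used here are raw counts as deposited, with no normalization, for 28395 genes by Entrez number, of which 27745 matched a symbol. The strand setting and the handling of reads with several matches are not given in the sources used here. Depth was 23143202 to 31459990 counts per sample.

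Genes were kept with filterByExpr on the 6 conditions (16740), scaled by TMM and fitted with edgeR 4.0.16 (quasi-likelihood) in R 4.3.3 on all 15 samples, 1 mean per condition, with Benjamini-Hochberg adjustment over all genes and a threshold of 0.05. Alternatives used DESeq2 1.42.0, limma 3.58.1 and sva 3.50.0, and are listed with their effects in the closing section. log2 CPM used a prior count of 2. The fit was run on simulated data as a check. Members and lists were chosen with earlier results of these data known. Named genes are the 6 members, up to 5 called genes per list at 30 weeks with at least 1 CPM on average and the largest changes, the 5 genes with the most similar pattern, the 3 genes that follow the members by counts, and noncoding genes among the top 20. Sequences were read from hg38 at RefSeq (GRCh38.p14) positions. Some items are not reported here.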

Additional observations from a re-analysis of the deposited data

Results flagged for a closer look

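The 4 exposed libraries at 30 weeks were checked for a library apart from the rest in 48 measures, and no other group was checked. Of these measures, 2 exceeded Dixon's critical value at the 95% level. Chance alone gives about 1 in 20 for independent measures. These measures share the same 4 libraries and are not independent, so that rate is only a rough guide. Exposed replicate 2 at 30 weeks stood apart for SNAPC1, a gap of 0.862 of the group's range (18.4 to 42.6 CPM), and for RNU4ATAC, a gap of 0.884 (1.70 to 2.91 CPM).

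The exposure change differed between 30 and 15 weeks, by an interaction term in edgeR, for POLR3G (difference 1.90 on the log2 scale, adjusted p = 0.0436), which had 4.13 CPM in exposed and 5.55 in control cells at 15 weeks. It differed for RNU11 (-1.48, adjusted p = 0.0408), SNORD45C (-1.49, adjusted p = 0.0346) and SNORD77 (-1.91, adjusted p = 0.0480), the latter pair with higher fitted levels in exposed cells at 15 weeks (0.57 and 0.98) and lower at 30 weeks (-0.92 and -0.92). These calls were 1 of 93 partner genes (1.1%) and 3 of 276 other small RNA genes (1.1%), below the 4.74% of all genes called for this term.

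RN7SL2 was higher in both exposed libraries than in both controls at 24 h and lower in all exposed libraries at the later times. At 24 h and 15 weeks its log2 fold change (0.26 and -0.27) was smaller than its SE of 0.278. Of all genes tested, 12.9% were higher without overlap at 24 h, 22% lower at 15 weeks and 13% lower at 30 weeks. The log2 fold change of RN7SL2 at 15 weeks minus that at 24 h was -0.529, and at 30 weeks minus that at 24 h -1.02. These differences were not tested.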

How the results depend on the processing

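The partner genes called at 30 weeks numbered 14, and became 27 with surrogate variables in limma-voom or in edgeR, 4 with each time point fitted alone, 22 with library totals only, and 4 at an adjusted p under 0.01; leaving out 1 replicate gave 4 to 29. The 70 other small RNA genes called at 30 weeks became 39 with each time point fitted alone and 28 at an adjusted p under 0.01; leaving out 1 replicate gave 28 to 99. At 15 weeks 1 small RNA gene was called by edgeR with surrogate variables and 3 with the time point fitted alone. All genes called at 30 weeks numbered 3961, and 2370 with that time fitted alone, 2166 at an adjusted p under 0.01 and 2491 without control replicate 1. Library totals alone moved the share of calls that were higher from 50.72% to 77.32%. SNORD3A reversed at 30 weeks, to 0.31 (limma-voom with surrogate variables), 0.050 (edgeR with them) and, leaving out 1 replicate, within -0.66 to 0.22 (the latter without control replicate 3); the cause was not tested. The exposed minus control share became 0.981, -1.74 and -13.4 at 24 h, 15 and 30 weeks as counts per 100 counts on other genes, and 0.148, -0.723 and -4.38 points without RN7SL1 and RN7SL2, which sum fewer RNAs; leaving out 1 replicate gave 0.688 to 0.813, -1.62 to -1.17 and -10.0 to -5.64. POLR3G, PWP2, TERC, SCARNA2, SCARNA10 and RNU11 kept their calls in all 19 alternatives. Genes at 1 CPM have few counts, which limits what their calls can show.

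Replicate numbers are shared across groups, but same-numbered samples did not deviate together (correlations -0.060 at 24 h, 0.029 at 15 weeks, and -0.118, 0.303 and 0.098 at 30 weeks), and 1 of 3 controls at 30 weeks correlated best with its own number. With the replicate number as a block, 13 partner genes and 45 small RNA genes were called at 30 weeks.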
